A study of Mus musculus with 22 samples.

Results

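A set of 10 genes that package oocyte chromatin was followed across every library: the linker histones H1foo and H1f0, the H2A variants H2afx, H2afz, H2afv and H2afy, the H3.3 genes H3f3a and H3f3b, and the histone chaperones Npm2 and Hira. They were chosen by symbol, and all 10 were found among the 22592 gene symbols of each of the 4 tables. The values are FPKM (fragments per kilobase of transcript, scaled to the mapped fragments of the library) from 22 RNA-seq libraries made by Smart-seq2, which primes at poly(A) tails, so they are levels of polyadenylated transcript per length, and a change in amount and one in tail length cannot be told apart.

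The groups compare mouse oocytes and embryos labelled knockout for Setd2, the enzyme that trimethylates lysine 36 of histone H3, with controls, at 2 libraries a group. Growing oocytes came from females of postnatal day 7 and were labelled Setd2-/- or Setd2+/-. Females 8 weeks old, injected with gonadotropins, gave the other oocytes and embryos, per the labels' protocols. The times given are counted from the gonadotropin PMSG for full-grown oocytes, with no hCG time, and from the gonadotropin hCG for zygotes. Full-grown oocytes (FGO), taken 48 h after PMSG, and zygotes (1C), taken 30 h after hCG, were labelled Setd2_KO or Setd2_Con, and the design text calls the knockout maternal. At 48 h the libraries titled KO are labelled 1C and those titled Con 2C, so genotype and cell stage cannot be told apart there. Embryos at the 8-cell stage (ST_8C) labelled Setd2-/- or Setd2+/- were grown after a spindle had been moved between a mutant oocyte, called Setd2mNull, and a control oocyte, in either direction, followed by sperm injection; the labels do not say whether spindle or cytoplasm was mutant. A further pair of full-grown oocytes, also taken 48 h after PMSG, with 1 library each, was labelled Dnmt3l_KO and Dnmt3l_Con, and its columns are named as merged. The promoter that drives any Cre, the strain and the number of cells or animals pooled per library are not given in the sources used here.

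A linker histone sits on the DNA where it enters and leaves the nucleosome. The oocyte makes its own, H1foo, which is also loaded onto sperm chromatin after fertilisation, and the nucleoplasmin Npm2 takes part in organising chromatin in the egg. Variants replace core histones, many of them outside DNA replication. H2afz and H2afv encode the H2A.Z proteins of promoters, and H2afx encodes the H2A.X that is phosphorylated at DNA breaks. H2afy encodes macroH2A, and H3f3a and H3f3b encode the same H3.3 protein, which Hira deposits.

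Promoters are shown for H1foo, which had the largest change at 48 h, and for the pair of H2A.Z genes, which were called in opposite directions in zygotes and at 48 h; each is the 250 bases before the gene's start in RefSeq (build GRCm38.p6). Capitals mark CCAAT on either strand, which reads ATTGG on the other.
H1foo (chr6:115944681-115944930, plus strand): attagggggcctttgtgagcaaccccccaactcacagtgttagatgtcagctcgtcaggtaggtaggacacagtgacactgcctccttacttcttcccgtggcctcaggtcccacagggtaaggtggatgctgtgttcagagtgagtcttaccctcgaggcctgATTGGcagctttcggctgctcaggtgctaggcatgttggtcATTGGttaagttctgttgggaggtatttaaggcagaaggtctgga
H2afz (chr3:137864237-137864486, plus strand): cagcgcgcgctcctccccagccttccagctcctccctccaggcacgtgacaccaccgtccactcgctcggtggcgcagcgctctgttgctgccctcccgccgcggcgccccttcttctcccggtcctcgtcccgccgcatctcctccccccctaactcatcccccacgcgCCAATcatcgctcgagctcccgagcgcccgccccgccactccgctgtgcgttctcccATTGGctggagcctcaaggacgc
H2afv (chr11:6444444-6444693, minus strand): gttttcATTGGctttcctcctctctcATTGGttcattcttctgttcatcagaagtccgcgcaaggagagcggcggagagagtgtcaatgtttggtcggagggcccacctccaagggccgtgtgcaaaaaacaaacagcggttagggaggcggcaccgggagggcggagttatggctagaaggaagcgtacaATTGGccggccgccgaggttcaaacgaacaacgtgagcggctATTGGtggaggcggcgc
H1foo holds 2 matches, H2afz 2 and H2afv 4, and 33.8% of 32851 mouse promoters of that length hold at least 1. GC content was 53.2% for H1foo, 71.2% for H2afz and 57.2% for H2afv, against a median of 52.4% over all promoters. The H1foo window also holds 1 TATTTAA, found on either strand in 4.18% of promoters. Promoters of 8 of the 10 genes were found in the table; H3f3b holds 4 CCAAT matches, H3f3a 1, and H1f0, H2afy and Hira 0. A match of letters is a description and no evidence of binding.

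Libraries held about 2.95 to 21.4 M fragments, estimated from the steps between low values, and 8999 to 10554 genes at 1 FPKM or more. Setd2 itself stood at 0.927 and 0.968 FPKM in knockout FGO against 4.35 and 4.75 in control, at 1.30 to 1.73 against 8.85 to 12.1 in zygotes, and at 1.42 to 1.74 against 43.0 to 53.2 at 48 h. It was 3.21 to 3.67 FPKM in growing oocytes labelled -/- against 4.33 to 6.68 in those labelled +/- (limma adjusted p = 0.799). In ST_8C embryos it was 15.4 to 18.1 against 17.1 to 18.2 (limma adjusted p = 0.934), so their label is not visible in this transcript. Dnmt3l was at 25 FPKM in the library labelled Dnmt3l_KO and at 31.7 in Dnmt3l_Con. All 12 oocyte markers reached 1 FPKM in every FGO and zygote library. Of 14 granulosa and cumulus genes, 3 reached 1 FPKM in knockout FGO and 4 in control FGO, with sums of 36.95 to 41.9 FPKM and 36.9 to 39.4 FPKM; at 48 h the sums were 29.6 to 32.6 FPKM in the knockout and 69.0 to 71.9 FPKM in controls. Their part in the members' values was not tested. The FGO sums came from genes of the list other than Foxl2 and Amh, so these 2 do not stand for the list. Foxl2 was at 0 in both knockout FGO libraries and at most 0.0527 FPKM in control FGO, and Amh was at 0 and at most 0.067.

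Changes are log2 differences of FPKM + 1, tested with limma with Benjamini-Hochberg adjustment over all tested genes of a table and called at 0.05. They are printed with their standard error (SE) and relative to the median change of all tested genes, because rescaling the libraries moved that median by more than 0.1 in several comparisons; the p belongs to the unshifted change. The labels do not say that the 2 libraries of a group came from separate animals, so a p-value describes no more than the spread of these libraries. In bulk libraries, fewer cells of a kind and less RNA per cell cannot be told apart.

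Few members were called before fertilisation and most of them at 48 h, and the same held for all genes. None of the 10 was called in growing oocytes, where limma called 0.0834% of 10794 genes and 868 had an unadjusted p under 0.05. In full-grown oocytes 1 was called, H2afz, which was higher in the knockout, against 6.92% of 12199 genes called, 2.02% higher and 4.89% lower. In zygotes 4 were called, all higher in the knockout, against 31.6% of genes, 18.5% higher and 13.1% lower; with rescaled libraries it was 4 higher and 1 lower. At 48 h 8 were called, 4 higher and 4 lower, against 73.8% of genes, 43.2% higher and 30.6% lower; with rescaled libraries it was 3 higher and 5 lower. In ST_8C embryos 0 of the 9 that could be tested were called, as were 0% of 9398 genes by limma (1243 at an unadjusted p under 0.05). The number called at each stage is near the share of all genes called, so it is not read as a result about the members. They are described by size and direction rather than by count. Knockout and control libraries did not overlap for 3 members in growing oocytes (37.4% of genes), 7 in FGO (65.1%), 8 in zygotes (60.7%), 9 in 48 h embryos (87.2%) and 3 in ST_8C embryos (46.1%), shares that are common among genes with 2 libraries a group.

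**Figure D1:**
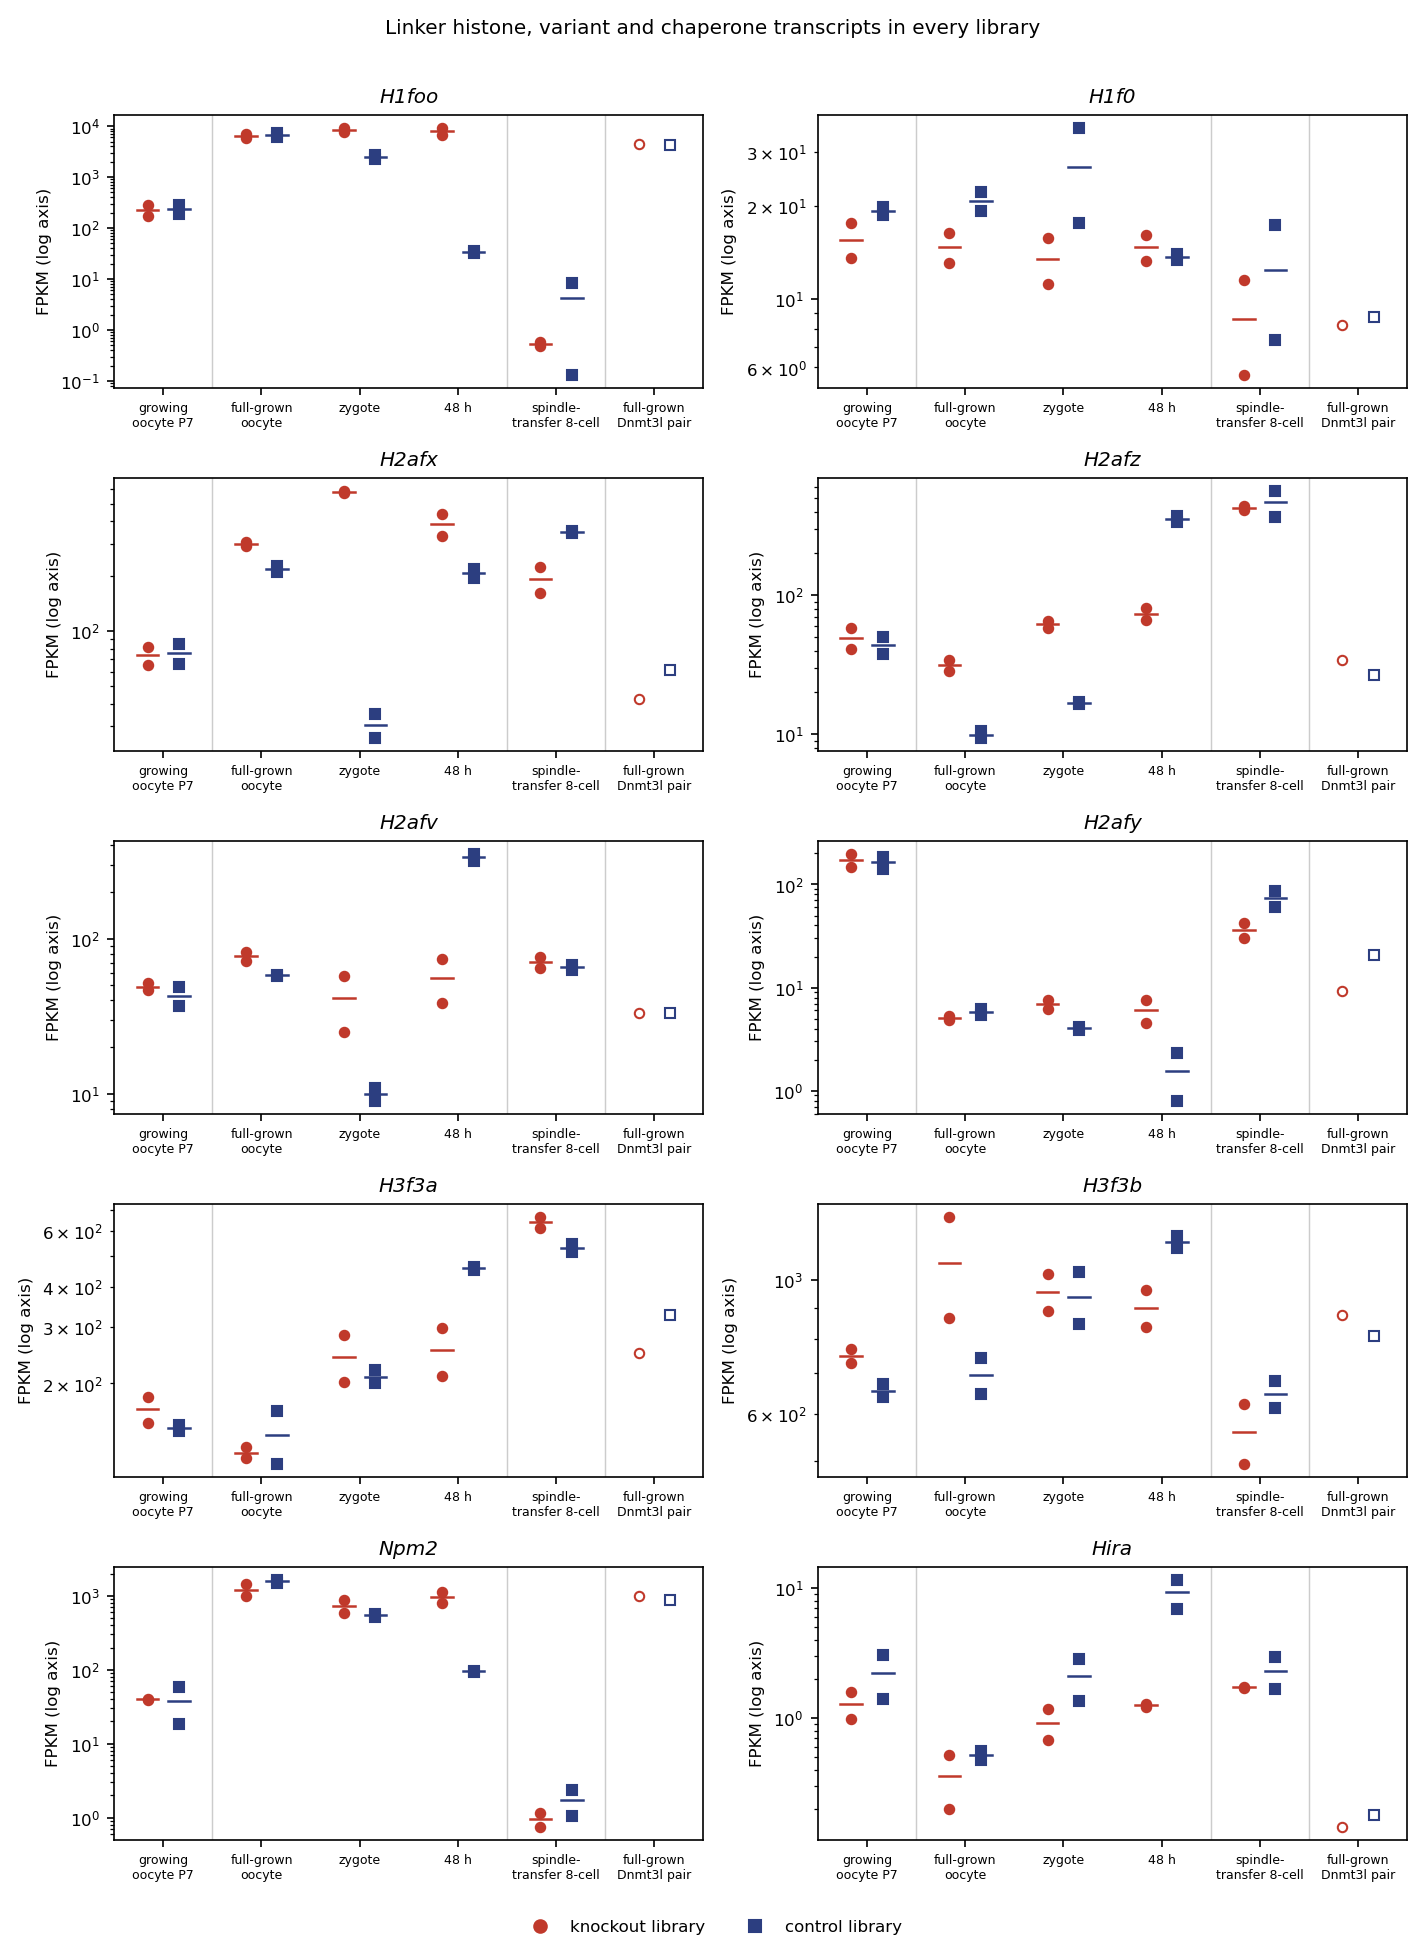
FPKM of each member on a log axis in every library, by stage; circles are knockout and squares control libraries, bars are means of 2, and grey lines separate tables that were normalized separately. At 48 h the knockout libraries hold 9084 and 6660.0 FPKM of H1foo and the controls 36.0 and 32.5 FPKM.

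H1foo, the oocyte linker histone, was among the most abundant transcripts of the full-grown oocyte and of knockout embryos at 48 h, when it was far lower in controls. In FGO it was at 6987 and 5987 FPKM in the knockout and 7245 and 6001 FPKM in controls, ranking from 1 to 3 among all genes in each library. These groups overlap, and the change was 0.16 (SE 0.22, limma adjusted p = 0.967). In zygotes H1foo was at 9363 and 7515 FPKM in the knockout, against 2714 and 2306 FPKM in controls. Both knockout libraries were above both controls, 3.36-fold by mean FPKM, and H1foo rose by 1.73 on the log2 scale (SE 0.22, limma adjusted p = 0.000363). At 48 h it was at 9084 and 6660.0 FPKM in knockout embryos, against 36.0 and 32.5 FPKM in control embryos, ranking 1 or 2 in the knockout and 1998 to 2177 in controls. That is 230.1-fold by mean FPKM, a rise of 7.36 (SE 0.22, limma adjusted p = 1.13e-09).

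The stages before and after carried no such gap. In growing oocytes H1foo was at 174 and 288 FPKM in those labelled -/- and 189.8 and 279 FPKM in those labelled +/-, groups that overlap. In ST_8C embryos it was at 0.583 and 0.487 FPKM in embryos labelled -/-, against 0.13 and 8.33 FPKM in those labelled +/-, and it was not tested because too few libraries reached 1 FPKM. The value of 8.33 stands on about 60 fragments and the others on about 1.1 to 4.2. The libraries labelled +/- disagree and lie on both sides of those labelled -/-, so no difference is read from these values.

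Followed through time, H1foo fell in controls and was not called at either step in the knockout. The step from FGO to zygote was 0.29 in the knockout (SE 0.22, limma adjusted p = 0.272) and -1.34 in controls (SE 0.22, limma adjusted p = 0.00069). The difference between these steps, knockout minus control, was 1.58 (SE 0.31, limma adjusted p = 0.00717); it fell short with rescaled libraries (limma adjusted p = 0.0531) and when only the 8 libraries concerned were fitted (limma adjusted p = 0.0597). From zygote to 48 h the change was -0.13 in the knockout (SE 0.22, limma adjusted p = 0.92), while controls dropped by 5.81 (SE 0.22, limma adjusted p = 3.31e-09). The difference between the genotypes' steps to 48 h was 5.68 (SE 0.31, limma adjusted p = 1.78e-07).

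H1f0, the linker histone of differentiated and non-dividing cells, stayed low throughout, between 5.66 and 36.0 FPKM. In zygotes it was at 11.2 and 15.8 FPKM in the knockout, against 36.0 and 17.7 FPKM in controls, a change of -0.89 that missed the threshold (SE 0.31, limma adjusted p = 0.0523). It passed without control replicate 2 of the zygotes (limma adjusted p = 0.00969) and with rescaled libraries (limma adjusted p = 0.044). In FGO it was at 16.3 and 13.1 FPKM in the knockout and 22.3 and 19.4 FPKM in controls, with no call (limma adjusted p = 0.377). In controls it dropped by 0.50 from zygote to 48 h (SE 0.31, limma adjusted p = 0.0282), a call lost in 6 of 9 alternatives.

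H1foo made up 99.7% and 99.7% of the summed FPKM of 11 linker histone genes in knockout FGO and 99.5% and 99.5% in control FGO. At 48 h the share was 99.7% and 99.5% in the knockout, against 61.2% and 58.8% in controls. In growing oocytes it was 74.2% and 84.3% in those labelled -/- and 82.2% and 88.8% in those labelled +/-. A share within a library does not depend on how libraries are scaled. It covers polyadenylated transcripts only, so RNA of any linker histone gene without a poly(A) tail is not counted in it. No test is given for shares, since 2 libraries against 2 allow no exact permutation p below 0.33.

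**Figure D2:**
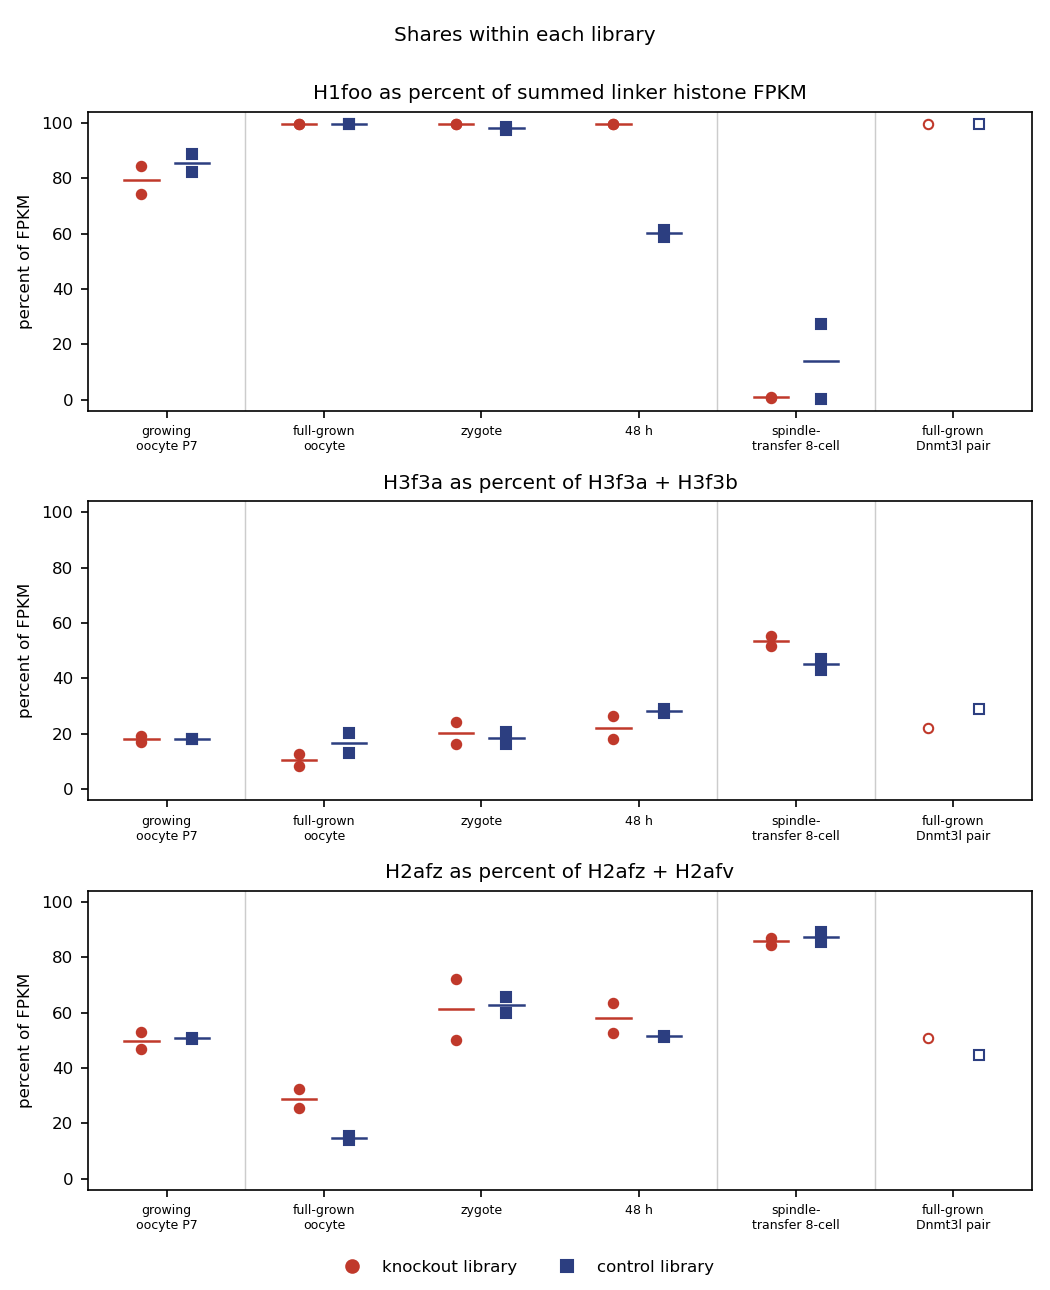
Percent of FPKM within each library taken by H1foo among linker histone genes, by H3f3a among the 2 H3.3 genes and by H2afz among the 2 H2A.Z genes; circles are knockout and squares control libraries, bars are means of 2. At 48 h H1foo takes 99.7% and 99.5% in the knockout, against 61.2% and 58.8% in controls.

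H2afx showed the largest knockout effect of any member in zygotes. It was at 589 and 572 FPKM in knockout zygotes, against 25.9 and 34.9 FPKM in controls, 19.1-fold by mean FPKM. No library of either group came near the other, and H2afx rose by 4.21 (SE 0.20, limma adjusted p = 2.15e-06). In FGO it was at 295 and 309 FPKM in the knockout, against 211 and 229 FPKM in controls; these groups do not overlap, but the change of 0.65 was not called (SE 0.20, limma adjusted p = 0.192).

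The steps into the zygote had opposite signs. H2afx rose by 0.85 from FGO to zygote in the knockout (SE 0.20, limma adjusted p = 0.0117), while in controls it dropped by 2.77 (SE 0.20, limma adjusted p = 7.58e-06). The difference between these steps was 3.57 (SE 0.29, limma adjusted p = 0.000186). The rise in the knockout was not called with rescaled libraries (limma adjusted p = 0.0641), in the fit of the 4 libraries alone (limma adjusted p = 0.114), or without either FGO knockout library or knockout zygote replicate 1.

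The gap at 48 h was smaller. H2afx was at 334 and 438 FPKM in the knockout and 219 and 195 FPKM in controls, a change of 0.45 (SE 0.20, limma adjusted p = 0.00215) that was not called with rescaled libraries (unshifted change 0.28, limma adjusted p = 0.261). H2afx rose in controls from zygote to 48 h by 3.08 (SE 0.20, limma adjusted p = 3.15e-07). In ST_8C embryos the order was the other way: 162 and 223 FPKM in embryos labelled -/- and 354 and 344 FPKM in those labelled +/-, a change of -0.80 that was not called (SE 0.21, limma adjusted p = 0.229). Those groups do not overlap, which was so for 46.1% of genes tested in that table.

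H2afz was the only member called in the full-grown oocyte. It was at 28.4 and 34.1 FPKM in the knockout, against 10.5 and 9.35 FPKM in controls, and rose by 1.75 (SE 0.19, limma adjusted p = 0.00265), a call that held in 9 of 9 alternatives. Both knockout libraries were above both controls, 3.15-fold by mean. The same held in zygotes, where H2afz was at 65.1 and 58.3 FPKM in the knockout, against 17.0 and 16.4 FPKM in controls, a rise of 1.81 (SE 0.19, limma adjusted p = 0.000138). A difference in effect between these stages was not called: it was 0.07 (SE 0.28, limma adjusted p = 0.614), with an unshifted 95% interval of -0.34 to 0.87.

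At 48 h the order had turned over. H2afz was at 65.9 and 81.5 FPKM in knockout embryos, against 335 and 373 FPKM in control embryos, and fell by 2.68 (SE 0.19, limma adjusted p = 1.36e-06). The change from zygote to 48 h was 0.23 in the knockout (SE 0.19, limma adjusted p = 0.729), while controls rose by 4.66 (SE 0.19, limma adjusted p = 1.08e-08). The difference was -4.44 (SE 0.28, limma adjusted p = 6.49e-07). In ST_8C embryos H2afz was at 413 and 438 FPKM in those labelled -/- and 366 and 566 FPKM in those labelled +/-, so the first group lies inside the range of the second.

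H2afv, the other H2A.Z gene, was called in zygotes and at 48 h in the same directions as H2afz, and was not called in the oocyte. In FGO it was at 82.4 and 71.7 FPKM in the knockout and 57.8 and 58.6 FPKM in controls, with no call (0.58, SE 0.37, limma adjusted p = 0.554). In zygotes it was at 25.2 and 57.9 FPKM in the knockout, against 8.97 and 10.95 FPKM in controls. Although the knockout replicates differ from each other, both were above both controls, and H2afv rose by 1.83 (SE 0.37, limma adjusted p = 0.00407). In 48 h embryos it was at 38.3 and 73.9 FPKM in the knockout, against 317 and 353 FPKM in controls, and fell by 3.06 (SE 0.37, limma adjusted p = 5.89e-05). From FGO to zygote its change was -1.08 in the knockout (SE 0.37, limma adjusted p = 0.0866) and -2.38 in controls (SE 0.37, limma adjusted p = 0.000508). The knockout step was called with rescaled libraries (limma adjusted p = 0.0341), with the replicate block (limma adjusted p = 0.048) and without knockout zygote replicate 2 (limma adjusted p = 0.00924), and the difference between these steps was not called (1.26, limma adjusted p = 0.107), except without knockout zygote replicate 1 (limma adjusted p = 0.0102). From zygote to 48 h the change was 0.45 in the knockout (SE 0.37, limma adjusted p = 0.728), while controls rose by 5.28 (SE 0.37, limma adjusted p = 3.28e-07).

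The mix of the H2A.Z genes shifted with stage. H2afz gave 25.6% and 32.2% of their summed FPKM in knockout FGO, against 15.4% and 13.8% in control FGO. In zygotes the share was 72.1% and 50.2% in the knockout and 65.4% and 59.9% in controls, and at 48 h it was 63.3% and 52.4% in the knockout and 51.4% and 51.3% in controls. The coding sequences of H2afz and H2afv are identical at 306 of 387 bases (79.1%). H2afz has 4 other annotated genes that match it at 95% or more over at least 200 bases, so the reads these genes share are uncertain. A retained-intron transcript of Tmcc1, a gene at 0.15 to 5.61 FPKM here, matches it over 682 bases. The processed pseudogene Gm8203, which has no value here, is identical to it over 387 bases. Such matches number 2 for H3f3b and 1 each for H2afx and Hira.

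H2afy, the macroH2A gene, was highest in growing oocytes and ST_8C embryos, which were normalized in tables of their own. It was at 147 and 199 FPKM in growing oocytes labelled -/- and 185 and 142 FPKM in those labelled +/-. In FGO it was at 4.84 and 5.32 FPKM in the knockout and 6.2 and 5.44 FPKM in controls, with no call (limma adjusted p = 0.814). In zygotes it was at 6.2 and 7.53 FPKM in the knockout and 3.88 and 4.14 FPKM in controls, with no call (0.63, SE 0.33, limma adjusted p = 0.155). In 48 h embryos it was at 4.5 and 7.63 FPKM in the knockout, against 0.791 and 2.3 FPKM in controls, and it rose by 1.07 (SE 0.33, limma adjusted p = 0.0015). Those values stand on about 41 and 73 fragments in the knockout and about 5 and 18 in controls. ST_8C embryos had it at 42.5 and 30.1 FPKM in those labelled -/- and 60.8 and 86.2 FPKM in those labelled +/-; these groups do not overlap, but the change of -0.92 was not called (SE 0.27, limma adjusted p = 0.258).

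H3f3b and H3f3a, encode the same H3.3 protein. H3f3b ranged from 495 to 1276 FPKM over all 22 libraries and was called in no comparison as fitted. In FGO it was at 1276 and 865 FPKM in the knockout and 743 and 648 FPKM in controls, a change of 0.78 (SE 0.22, limma adjusted p = 0.126). At 48 h it was at 962 and 835 FPKM in the knockout and 1184 and 1130.3 FPKM in controls, a change of -0.80 that missed the threshold (SE 0.22, limma adjusted p = 0.149) and was called with rescaled libraries (limma adjusted p = 0.0102).

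H3f3a was at 117 and 127 FPKM in knockout FGO and 112 and 164 FPKM in control FGO, and at 202 and 284 FPKM in knockout zygotes and 220.2 and 200.2 FPKM in control zygotes; both pairs of groups overlap. At 48 h it was at 212 and 299 FPKM in the knockout, against 453 and 464 FPKM in controls, and fell by 1.29 (SE 0.25, limma adjusted p = 0.00833). That call was lost without knockout replicate 1 at 48 h, where the unshifted change was -0.61 (limma adjusted p = 0.0802). From zygote to 48 h the change was 0.05 in the knockout (SE 0.25, limma adjusted p = 0.964), while controls rose by 1.46 (SE 0.25, limma adjusted p = 0.00151). The difference between the genotypes' steps was -1.41 (SE 0.35, limma adjusted p = 0.0206), a call lost when any of 5 single libraries was left out (limma adjusted p up to 0.0827).

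H3f3a took 8.37% and 12.8% of the H3.3 transcripts in knockout FGO, against 13.1% and 20.2% in control FGO. At 48 h the share was 18.0% and 26.4% in the knockout and 27.7% and 29.1% in controls. In ST_8C embryos it was 55.3% and 51.7% in those labelled -/- and 47.1% and 43.2% in those labelled +/-. The groups overlapped in zygotes, at 16.45% and 24.16% in the knockout and 20.68% and 16.24% in controls. They also overlapped in growing oocytes, at 17.15% and 19.07% in those labelled -/- and 18.05% and 18.13% in those labelled +/-. The coding sequences are identical at 316 of 411 bases (76.9%). H3f3a has 17 other annotated genes that match it at 95% or more over at least 200 bases, nearly all processed pseudogenes, so the reads it shares with them are uncertain; 1 of them, Gm12657, is in the tables at 25.8 to 179.9 FPKM.

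Npm2, the nucleoplasmin of the egg, was called higher in the knockout at 48 h and at no earlier stage. It was at 983 and 1432 FPKM in knockout FGO and 1470.2 and 1654 FPKM in control FGO, with no call (-0.21, SE 0.26, limma adjusted p = 0.385). In zygotes it was at 578 and 890.4 FPKM in the knockout and 569 and 516 FPKM in controls, again with no call (0.39, SE 0.26, limma adjusted p = 0.265). At 48 h it was at 1121 and 799 FPKM in the knockout, against 94.3 and 95.4 FPKM in controls, 10.1-fold by mean, and rose by 2.87 (SE 0.26, limma adjusted p = 6.62e-07). The change from zygote to 48 h was 0.38 in the knockout (SE 0.26, limma adjusted p = 0.665), while control Npm2 dropped by 2.16 (SE 0.26, limma adjusted p = 4.9e-06). From FGO to zygote it was -0.81 in the knockout (SE 0.26, limma adjusted p = 0.0788) and -1.46 in controls (SE 0.26, limma adjusted p = 0.00111). The knockout step was called with rescaled libraries (limma adjusted p = 0.0211) and without knockout zygote replicate 2 (limma adjusted p = 0.0188). The ratio of H1foo to Npm2 was 16.2 and 8.44 in knockout zygotes, against 4.77 and 4.47 in control zygotes, and 7.11 and 4.18 in knockout FGO, against 4.93 and 3.63 in control FGO.

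Hira, the chaperone that deposits H3.3, was the scarcest member at most stages, at 0.199 and 0.516 FPKM in knockout FGO and 0.478 and 0.557 FPKM in control FGO. In zygotes it was at 0.675 and 1.17 FPKM in the knockout and 2.85 and 1.34 FPKM in controls, with no call (-0.67, SE 0.30, limma adjusted p = 0.124), though it passed without control replicate 2 (limma adjusted p = 0.0483). In 48 h embryos it was at 1.29 and 1.22 FPKM in the knockout, against 11.7 and 6.94 FPKM in controls, and fell by 2.58 (SE 0.30, limma adjusted p = 6.51e-05). From zygote to 48 h the change was 0.22 in the knockout (SE 0.30, limma adjusted p = 0.849), while controls rose by 2.08 (SE 0.30, limma adjusted p = 0.000292). The 48 h values stand on about 24 and 24 fragments in the knockout and 150 and 110 in controls.

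**Figure D3:**
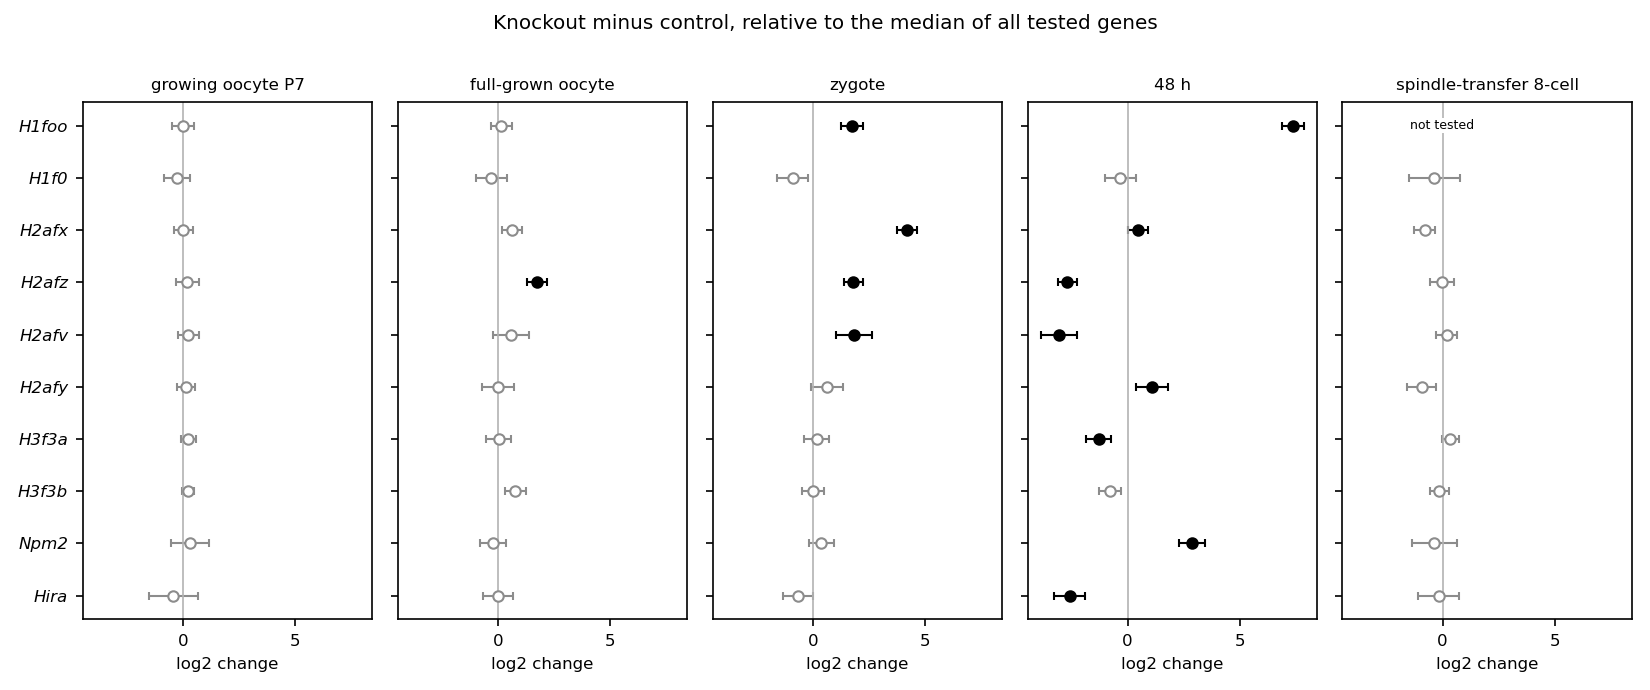
Knockout minus control log2 change of each member at each stage, relative to the median of all tested genes, with 95% intervals from limma. Filled points were called at an adjusted p of 0.05. The call belongs to the unshifted change, so the drawn interval of an open point can lie clear of 0. H2afz is the only filled point in the full-grown oocyte, 4 members are filled in zygotes, and at 48 h H1foo reaches 7.36.

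Across the stage steps, more members were called in controls than in the knockout, and the same held for all genes. These counts are therefore not read as a result about the members. From FGO to zygote, 3 members were called in the knockout, all higher, against 17.7% of genes (12.6% higher, 5.1% lower). With rescaled libraries 1 was called higher and 2 lower there: H2afx and H3f3a were no longer called, and H2afv (limma adjusted p = 0.0341) and Npm2 (limma adjusted p = 0.0211) were called lower. In controls 6 were called, 2 higher and 4 lower, against 42.5% of genes (18.5% higher, 24% lower). From zygote to 48 h, 0 were called in the knockout, against 0.205% of genes; limma gave 1 member, H2afx, an unadjusted p under 0.05 there (0.0128). In controls 9 were called, 5 higher and 4 lower, against 76.1% of genes (33.4% higher, 42.7% lower), and 6 higher and 2 lower with rescaled libraries. The difference between genotypes was called for 2 members at the first step, both higher (9.39% of genes, 8.29% higher and 1.1% lower). It was called for 7 at the second, 2 higher and 5 lower (66.2% of genes, 36.7% higher and 29.5% lower). The knockout call of H3f3a at the first step (0.88, SE 0.25, limma adjusted p = 0.0227) was lost in 6 of 9 alternatives and that of H2afz (0.87, SE 0.19, limma adjusted p = 0.00923) in 3 of 9. In controls, the first-step calls of H2afz (0.76, SE 0.19, limma adjusted p = 0.0146) and Hira (1.04, SE 0.30, limma adjusted p = 0.0231) were lost in 2 and 5 of 9. H2afy dropped by 0.70 in controls at the second step (SE 0.33, limma adjusted p = 0.0125), which was lost in 3 of 9.

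**Figure D4:**
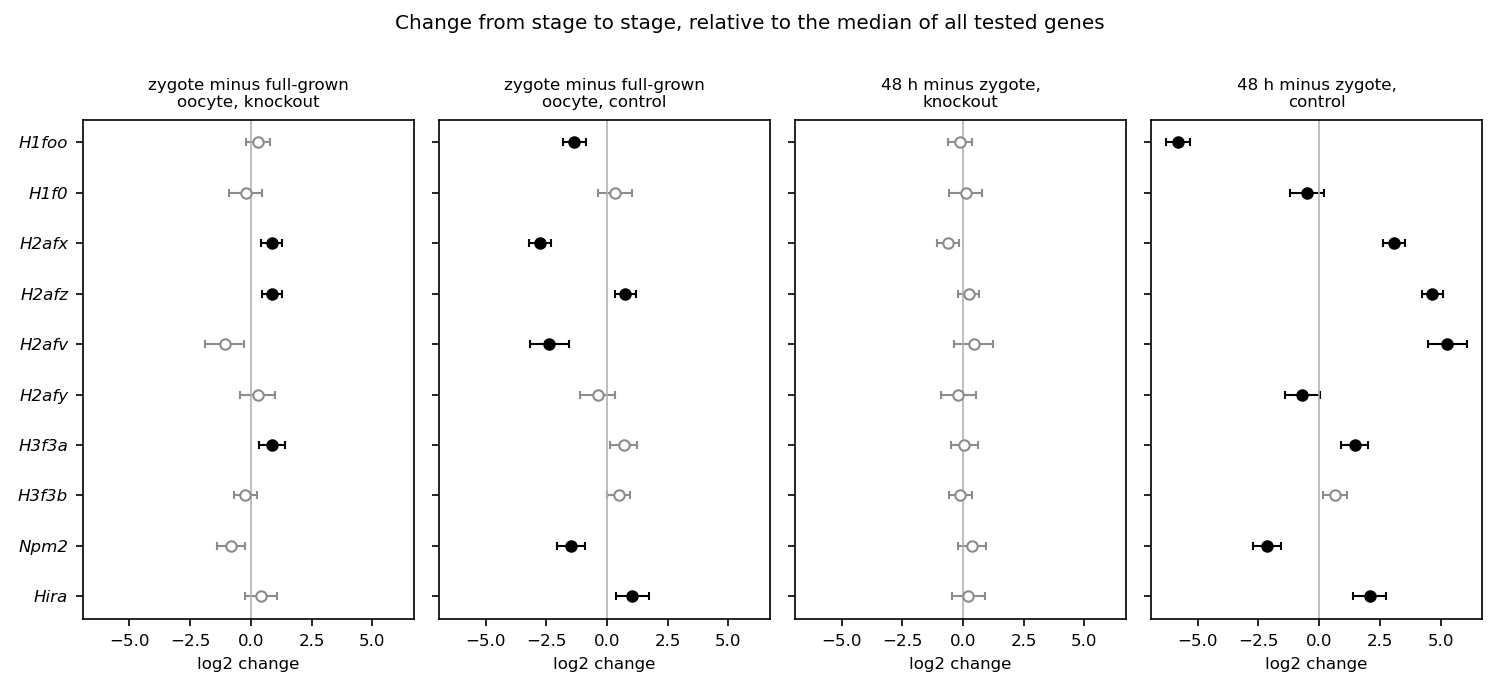
Change of each member from full-grown oocyte to zygote and from zygote to 48 h, in knockout and control. Values are relative to the median of all tested genes, with 95% intervals. Filled points were called on the unshifted change, so the drawn interval of an open point can lie clear of 0. No member is filled for the knockout step to 48 h, where 0.205% of all tested genes were called. For the control step 9 members are filled, where 76.1% of all tested genes were called.

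The zygote calls rest on the shared spread of 12 libraries. When the 4 zygote libraries were fitted alone, limma called 0 of 12199 genes (3624 at an unadjusted p under 0.05), and the 4 members had adjusted p from 0.0747 to 0.122 with the same changes. Markers of the oocyte moved with these results: the 12 genes of that list summed to 8856 to 10840 FPKM in knockout zygotes, against 5286 to 5509 FPKM in control zygotes, and to 9427 to 9849 FPKM in knockout embryos at 48 h, against 256 to 281 FPKM in controls. All 12 reached 1 FPKM in the knockout at 48 h and 11 or 12 in controls. The 5 listed 2-cell genes summed to 5.6 to 29.8 FPKM in the knockout at 48 h and 101 to 126 FPKM in controls, and 1 of them, Usp17la, was at 0 in 1 knockout library. Their part in the members' changes was not tested.

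The order of levels shows the same contrast. In knockout FGO H1foo stood above Npm2 and H3f3b, whose ranges overlap, then H2afx, H3f3a, H2afv, H2afz, H1f0, H2afy and Hira, with no other neighbours overlapping. In control FGO the order was the same except that H1f0 stood above H2afz. At 48 h H1foo remained first in the knockout, whereas in controls the order was H3f3b, H3f3a, H2afz and H2afv (these overlap), H2afx, Npm2, H1foo, H1f0, Hira and H2afy. In ST_8C embryos H3f3a and H3f3b overlapped at the top in those labelled -/-.

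Related genes were counted from lists. Of 20 tested histone chaperones, 0 were higher and 3 lower in knockout FGO, where 6.92% of all genes were called: Ssrp1, a subunit of the FACT chaperone (-1.36, SE 0.27, limma adjusted p = 0.0123), Dek (-0.72, SE 0.20, limma adjusted p = 0.027) and Atrx, which deposits H3.3 with Daxx (-0.60, SE 0.21, limma adjusted p = 0.0471). In zygotes 1 was higher, Daxx (1.88, SE 0.41, limma adjusted p = 0.00596), and 5 lower, among them Ssrp1 (-1.26, SE 0.27, limma adjusted p = 0.00618) and Hjurp, the chaperone of the centromere histone Cenpa (-1.04, SE 0.23, limma adjusted p = 0.0075), against 31.6% of all genes called. At 48 h 6 were higher and 8 lower, where Set, a nucleosome assembly protein, fell by 6.30 (SE 0.38, limma adjusted p = 1.54e-07) and the H3-H4 chaperone Asf1a rose by 2.39 (SE 0.24, limma adjusted p = 1.12e-06), against 73.8% of all genes called. The zygote and 48 h counts are near those shares. The list's median unshifted change was -0.23 in FGO, -0.15 in zygotes and -0.36 at 48 h, against -0.19, 0.01 and 0.43 over all genes.

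Of 15 genes for H2A.Z exchange, 1 was higher and 0 lower in knockout FGO, Actr6 of the SRCAP complex (1.27, SE 0.28, limma adjusted p = 0.0424). The share of all genes called was 6.92% in FGO, 31.6% in zygotes and 73.8% at 48 h, and the later counts of this list are near it. In zygotes 4 were higher and 2 lower, led by Dmap1, a subunit of the SRCAP and p400 complexes (2.31, SE 0.29, limma adjusted p = 0.000326), and Kat5, the acetyltransferase of the p400 complex (-1.26, SE 0.28, limma adjusted p = 0.00708). At 48 h 4 were higher and 7 lower, including Actr6 (-3.60, SE 0.28, limma adjusted p = 1.47e-06) and Anp32e, the chaperone that removes H2A.Z (-2.97, SE 0.27, limma adjusted p = 6.36e-06). The median unshifted change was -0.30, 0.30 and -0.37 at these stages.

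Of 13 tested genes for H2A.X phosphorylation and its readers, 0 were called in FGO by limma, and the counts in zygotes and at 48 h are near the 31.6% and 73.8% of all genes. In zygotes 1 was higher, Rnf8, a ubiquitin ligase at DNA breaks (1.58, SE 0.20, limma adjusted p = 0.000391), and 3 lower, among them Mdc1, the reader of phosphorylated H2A.X (-1.51, SE 0.27, limma adjusted p = 0.00275). At 48 h 5 were higher and 4 lower. Among the higher were Eya1, a phosphatase of H2A.X (2.98, SE 0.24, limma adjusted p = 2.39e-07), and Rnf8 (1.64, SE 0.20, limma adjusted p = 3.89e-06). Among the lower were Ppp4c, another phosphatase of H2A.X (-2.48, SE 0.18, limma adjusted p = 1.66e-06), and Atm, the kinase that phosphorylates it (-2.02, SE 0.17, limma adjusted p = 7.69e-06). The median unshifted change was -0.34, -0.31 and 0.45.

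Of 9 tested other linker histones and variants, 1 was lower in knockout FGO, Cenpa (-1.01, SE 0.31, limma adjusted p = 0.0428). In zygotes 2 were higher, H2afj (2.28, SE 0.42, limma adjusted p = 0.0026) and the second macroH2A gene H2afy2 (1.07, SE 0.32, limma adjusted p = 0.025), and 1 lower, the linker histone Hist1h1a (-1.47, SE 0.36, limma adjusted p = 0.0118). At 48 h 4 were higher and 3 lower. The shares of all genes called were 6.92% in FGO, 31.6% in zygotes and 73.8% at 48 h, near these counts in the embryos. The germ-cell histones Hist1h2aa (4.99, SE 0.62, limma adjusted p = 1.32e-05) and Hist1h2ba (3.57, SE 0.74, limma adjusted p = 0.000484) were higher, and the linker histone Hist1h1b (-2.60, SE 0.27, limma adjusted p = 2.2e-05) lower. The median unshifted change was -0.64, 0.07 and 0.80. For the Hist1h1 genes too, RNA without a poly(A) tail is not counted. In growing oocytes and ST_8C embryos 0 genes of these lists were called by limma.

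Genes most like each member were sought among 6962 genes averaging at least 5 FPKM over the 12 libraries of FGO, zygotes and 48 h embryos, by Pearson's r of log2(FPKM + 1); these libraries share their stages and genotypes, so r is a description. For H1foo they were Gdpd1 (0.999), Psrc1 (0.992), Tbc1d14 (0.991), Cpeb1 (0.991) and Tmem5 (0.99). The nearest were Daglb for Npm2 (0.993), Znrd1 for H2afv (0.988), Rab5a for H2afz (0.982) and Nxt1 for H2afx (0.957). For H3f3a it was Gm12657 (0.99), which shares sequence with it as described above. H1f0 and H3f3b had no neighbour above 0.867 and 0.86, Pdcd4 and Pgap2, and H2afy and Hira were below the level required. Among the members themselves, r was 0.938 between H1foo and Npm2 and 0.701 between H2afz and H2afv over the same 12 libraries. H2afz was closer to H3f3a (0.827) and Hira (0.745) than to H2afv, and r was -0.925 between H1foo and Hira.

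In the Dnmt3l pair, a single member passed a log2 ratio of 1 either way, against 1.95% of 9708 genes. This was H2afy, at 9.17 FPKM in the library labelled Dnmt3l_KO and 20.7 FPKM in Dnmt3l_Con, a log2 ratio of -1.09. H2afx was at 42.2 FPKM and 60.9 FPKM in these libraries (-0.52), H3f3a at 249 and 327 FPKM (-0.40) and H2afz at 34.0 and 26.7 FPKM (0.34). H1foo was at 4513 FPKM in the library labelled Dnmt3l_KO and 4229.7 FPKM in Dnmt3l_Con, Npm2 at 1007 and 872 FPKM, H3f3b at 875 and 807 FPKM, H2afv at 33.1 and 33.2 FPKM, H1f0 at 8.24 and 8.75 FPKM and Hira at 0.144 and 0.179 FPKM. With 1 library a group these differences have no replicate check. The tables were normalized separately, and levels are not compared between this pair and the Setd2 oocytes.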

How the data were processed

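Polyadenylated RNA of 22 mouse libraries was measured by Smart-seq2, per the labels' protocols. The authors deposited FPKM values in 4 tables, normalized separately; mm9, Cufflinks 2.0.2 and TopHat2 2.0.11 are listed, without roles or steps, per the submitters' processing notes, and read counts were not used here. Libraries were grouped by title and genotype label, and each column was matched to a library by name. Values were taken as log2(FPKM + 1), and a gene was tested where 2 or more libraries of its table reached 1 FPKM, which left 10794 genes for growing oocytes, 12199 for the table that holds FGO, zygotes and 48 h embryos, and 9398 for ST_8C embryos. All 10 members passed in the first 2 tables and 9 in the last.

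Group means were fitted with limma 3.58.1 in R 4.3.3 (moderated variances with a trend, two-sided, Benjamini-Hochberg over all tested genes), 1 fit per table, the 12 libraries together. The code was tested on simulated data. Alternatives were a pseudocount of 0.1, no filter, median-ratio rescaling, the compared groups alone, a replicate block and each library left out. Depth was estimated from the smallest step between low values of 3164 genes with 1 transcript; it is approximate and limits values under 1 FPKM. The members, lists, named-gene rule (every member, the nearest genes by correlation, and up to 4 called list genes per comparison with the smallest adjusted p) and tests were chosen with earlier results of these data known. Replicate numbers come with the titles, and nothing says that they mark a shared animal or day, or that replicates are separate animals. Symbols were matched to GENCODE vM21 and RefSeq for names, chromosomes and sequence. The files' build is mm9, so coordinates are given only for the promoter windows shown, in GRCm38.p6. Figures used matplotlib 3.10.9.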

Additional observations from a re-analysis of the deposited data

Results flagged for a closer look

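The effect of the genotype on the stage step differed by its own test for 9 results, given as knockout minus control relative to the median of all genes. From full-grown oocyte to zygote these were H1foo (1.58) and H2afx (3.57). From zygote to 48 h they were H1foo (5.68), Npm2 (2.54), H2afx (-3.70), H2afz (-4.44), H2afv (-4.84), H3f3a (-1.41) and Hira (-1.86). At that step limma adjusted p ran from 1.78e-07 for H1foo to 0.0206 for H3f3a. The Hira call was lost with a pseudocount of 0.1 (limma adjusted p = 0.0701).

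The count that follows leaves out the stage pairs tested above, full-grown oocyte with zygote and zygote with 48 h. There, H2afz and H2afv lay above all controls in zygotes and below them at 48 h. H2afy and Npm2 lay below all controls in full-grown oocytes and above them in zygotes, though neither was called at either stage. The share of all genes changing sides in those pairs was not computed, so changing sides there is not read as a result about the members. Among the other stage pairs, in 13 cases all knockout libraries lay on one side of all controls at one stage and on the other side at another. These differences were not tested; they are unshifted log2 changes at the later minus the earlier stage, and some set separately normalized tables side by side. Such opposite sides were common among all genes tested at both stages: 28.8% at 48 h against full-grown oocytes (5 of 10 members), 17.3% at 48 h against growing oocytes (2 of 10), and in ST_8C embryos 21.2% against 48 h (3 of 9), 14.9% against zygotes (2 of 9) and 13.8% against full-grown oocytes (1 of 9). At 48 h against full-grown oocytes they were Npm2 (3.70), H2afy (1.67), H2afz (-3.81), H2afv (-3.02) and H3f3b (-0.965); for H2afy the change in full-grown oocytes was -0.17 unshifted and 0.02 relative to the median, so its direction there turns with the scaling. At 48 h against growing oocytes they were H3f3a (-1.05) and H3f3b (-0.559). In ST_8C embryos against 48 h they were H3f3a (1.13), H2afx (-1.76) and H2afy (-2.50), against zygotes H2afx (-5.10) and H2afy (-1.64), and against full-grown oocytes H2afx (-1.33).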

How the results depend on the processing

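Of 40 called member results, 24 held in every alternative, 16 were lost in at least 1 and 0 changed direction. Of 1042 values of members under alternatives, 981 kept their side of the threshold, 44 lost it and 17 gained it.

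Counts of called genes that moved by more than 1.5 times are given here. Growing oocytes had 9 calls, 0 without the filter (959 genes at an unadjusted p under 0.05) and 0 to 3 with a library left out. Full-grown oocytes had 844, 489 with a pseudocount of 0.1, 500 without the filter and 47 to 147 with a library left out. Zygotes had 3850, 0 in the fit of the zygote libraries alone (members 0, against 4) and 2251 to 3932 with a library left out. ST_8C embryos had 0, and 0 to 1 with a library left out. From full-grown oocyte to zygote, the knockout had 2154 calls, 0 in the fit of the compared groups alone (members 0, against 3; 3277 genes at an unadjusted p under 0.05), and 318 to 2889 with a library left out, when 0 to 4 members were called. Controls had 5190 calls there, and 3154 to 4374 with a library left out. The knockout step from zygote to 48 h had 25 calls, 40 without the filter, 13 with rescaled libraries, 0 with the compared groups alone (649 at an unadjusted p under 0.05) and 11 to 172 with a library left out. The difference between genotypes from full-grown oocyte to zygote had 1145 calls, 603 without the filter, 547 with the compared groups alone and 323 to 1962 with a library left out; 2 members were called, and 1 with rescaled libraries and 1 with the compared groups alone. In the Dnmt3l pair 189 genes passed the fold, and 552 with a pseudocount of 0.1.

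Rescaling turned the split of higher and lower calls. It was 247 and 597 in full-grown oocytes and 440 and 260 after rescaling, 5270 and 3727 at 48 h and 4318 and 4728 after it, 1532 and 622 in the knockout step to the zygote and 882 and 1218 after it, 4080 and 5205 in the control step to 48 h and 4910 and 4353 after it, and 4480 and 3599 in the difference of the steps to 48 h and 3656 and 4464 after it. The difference of the first steps had 1011 and 134, then 629 and 191. The cause of the moves was not tested, other than that fewer libraries or genes enter some fits.

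Deviations of libraries with the same replicate number correlated by 0.0416 (growing oocytes), 0.186 (FGO), 0.0742 (zygotes), 0.00244 (48 h embryos) and 0.0724 (ST_8C embryos), so the numbers were not taken as pairs. With the replicate block limma called 129 genes in growing oocytes and 15 in ST_8C embryos, and 0 members in either; other counts stayed within 1.5 times. The lists of related genes were not refitted under the alternatives. Depth limits Hira before 48 h, H2afy at 48 h, and H1foo and Npm2 in ST_8C embryos.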
